A study of Mus musculus with 75 samples.

Results

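Galnt18, Rgs8, C1qtnf3, Cd24a and Cd53 are 5 of the 24984 genes counted in RNA-seq libraries of mouse skin fibroblasts. They had been listed as genes with the largest increases between passages, so they were selected on their RNA levels over the passages, which are given here as a description without a test. Their RNA after manipulation of 3 transcription factors and the open chromatin around them did not enter that choice and were tested.

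Skin fibroblasts of 2-month-old female C57BL/6 mice were grown untreated and split 1 to 3 until replicative senescence, the lasting arrest of division that cells enter after repeated divisions. RNA was sequenced at passages P1, P3, P5 and P7 in 4 libraries per passage, and open chromatin was mapped by ATAC-seq in 4 samples of P1 and 3 of every later passage. The manipulated cells were also labelled C57BL/6 skin fibroblasts and carried lentiviral vectors, in the treated and the control groups alike. E2f4, a factor of the E2F family that binds cell cycle genes, was overexpressed from P4 with a doxycycline-inducible vector (2 libraries) against an EGFP vector (2 libraries). E2f4 was also knocked down at P3 with hairpin sh1 (3 libraries) against a non-targeting hairpin (3 libraries). Tead1, the DNA-binding partner of the Hippo effector YAP, was knocked down at P6 with hairpins sh3 and sh4, and Atf3, a stress-induced factor of the AP-1 and CREB class, with sh5 and sh6, with 3 libraries of each hairpin and 3 of a non-targeting hairpin per experiment. Hairpin cells were selected with puromycin. The methods name cells of 2-month-old and of newborn mice for the manipulated cultures without assigning them to libraries, and the study speaks of independent sample series for its bisulfite data only. Whether the replicates of RNA-seq and ATAC-seq were separate animals or cultures is not given in the sources used here. The p-values therefore measure the spread between these samples, which may be technical.

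The 5 proteins act at different places in the cell. Galnt18 belongs to the polypeptide N-acetylgalactosaminyltransferases, enzymes of the secretory pathway that start mucin-type O-glycosylation by attaching N-acetylgalactosamine to serine or threonine. Rgs8 belongs to the regulators of G-protein signalling (RGS), which speed up GTP hydrolysis by Gi and Gq alpha subunits and so shorten signals from receptors, and it is best known from neurons. C1qtnf3 is a secreted protein of the C1q and TNF related family known from cartilage and fat. Cd24a is a small, heavily glycosylated surface protein with a GPI anchor that is found on developing lymphocytes and epithelial cells and is bound by Siglec receptors. Cd53 is a tetraspanin, a membrane protein with 4 transmembrane segments, whose textbook expression is in leukocytes.

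The genes lie on 5 chromosomes of GRCm38, the assembly of mm10. Galnt18 (Entrez gene 233733) spans chr7:111471656-111780067 on the minus strand, 308 kb in all. Rgs8 (67792) spans chr1:153652959-153697669 on the plus strand, C1qtnf3 (81799) chr15:10952119-10980162 on the plus strand, Cd24a (12484) chr10:43579169-43584265 on the plus strand and Cd53 (12508) chr3:106758861-106790149 on the minus strand. Exonic sequence of Cd24a matched chromosome 14 of the same assembly at chr14:119643933-119645246 with 96.5% identity over 1329 of its 1816 exonic bases, inside Hs6st3 and the pseudogene Gm6212. A further stretch of 495 bases matched at chr14:119649138-119649626 with 95.4% identity, so the counts of Cd24a are uncertain where reads fit both places. C1qtnf3 is overlapped by the minus-strand long non-coding RNAs Gm34315 and Gm52174, which are not rows of the count table, and since counting ignored strand their reads cannot be told apart from those of C1qtnf3.

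Promoters of 3 of the 5 genes were read from the RefSeq table of GRCm38.p6, from 250 bases before to 50 bases after the annotated start. They are shown because the manipulated factors bind DNA, and capitals mark GGAATG, the TEAD motif. The table holds 3 promoters of Rgs8. The one at chr1:153652787-153653086 (plus strand), printed here, held a TEAD motif, and those at chr1:153665024-153665323 and chr1:153665423-153665722 held none of the motifs searched. The promoter of C1qtnf3 at chr15:10952082-10952381 (plus strand) held a TEAD motif, and that of Cd53 at chr3:106790100-106790399 (minus strand) held none of the motifs searched.
Rgs8 promoter: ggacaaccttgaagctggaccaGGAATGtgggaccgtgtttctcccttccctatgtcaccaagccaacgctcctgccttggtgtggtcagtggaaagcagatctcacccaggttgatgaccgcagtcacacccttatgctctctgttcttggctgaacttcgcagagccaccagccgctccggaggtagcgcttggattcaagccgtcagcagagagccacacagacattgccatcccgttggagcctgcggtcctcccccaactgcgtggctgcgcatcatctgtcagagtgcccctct
C1qtnf3 promoter: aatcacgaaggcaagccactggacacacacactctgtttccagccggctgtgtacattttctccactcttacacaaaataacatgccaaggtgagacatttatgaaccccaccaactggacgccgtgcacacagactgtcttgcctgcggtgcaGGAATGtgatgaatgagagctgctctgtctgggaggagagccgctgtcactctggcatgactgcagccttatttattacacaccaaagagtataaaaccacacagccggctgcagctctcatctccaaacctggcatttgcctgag
Cd53 promoter: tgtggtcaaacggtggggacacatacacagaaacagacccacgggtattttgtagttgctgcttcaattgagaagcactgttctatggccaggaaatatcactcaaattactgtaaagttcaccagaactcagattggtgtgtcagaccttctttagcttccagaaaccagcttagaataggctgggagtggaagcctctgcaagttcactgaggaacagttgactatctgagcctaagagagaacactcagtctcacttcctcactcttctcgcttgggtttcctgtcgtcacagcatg

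Open regions are shown as 201 bases around the summit of their strongest peak over all samples, on the plus strand of GRCm38. AP-1 motifs (TGANTCA) are in capitals, and the strongest regions were picked by their peaks at P7. The first 3 lie at Galnt18 and had a peak in every P7 sample and in no P1 sample. They are the strongest of these inside the gene (chr7:111572090-111572290, in an intron), the nearest to the start site (chr7:111772925-111773125, in an intron) and the strongest outside the gene within 10 kb (chr7:111466215-111466415, between genes).
Galnt18 strongest inside: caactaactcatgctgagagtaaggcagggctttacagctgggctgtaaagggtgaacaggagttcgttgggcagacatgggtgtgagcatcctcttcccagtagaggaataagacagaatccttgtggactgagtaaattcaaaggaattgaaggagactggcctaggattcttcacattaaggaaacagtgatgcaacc
Galnt18 nearest to the start site: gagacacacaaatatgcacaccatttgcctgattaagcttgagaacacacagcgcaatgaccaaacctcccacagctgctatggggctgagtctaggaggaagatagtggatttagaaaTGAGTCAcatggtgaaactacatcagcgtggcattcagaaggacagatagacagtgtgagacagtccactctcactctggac
Galnt18 outside the gene: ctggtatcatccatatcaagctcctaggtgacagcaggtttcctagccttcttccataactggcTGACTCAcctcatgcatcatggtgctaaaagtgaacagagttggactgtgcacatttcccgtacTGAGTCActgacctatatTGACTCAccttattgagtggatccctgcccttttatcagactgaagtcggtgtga
The other 4 genes had no such region within 10 kb. Their strongest intronic region with a peak in every sample is shown for comparison, namely Rgs8 chr1:153685723-153685923, C1qtnf3 chr15:10956759-10956959, Cd24a chr10:43580905-43581105 and Cd53 chr3:106788639-106788839.
Rgs8 intron: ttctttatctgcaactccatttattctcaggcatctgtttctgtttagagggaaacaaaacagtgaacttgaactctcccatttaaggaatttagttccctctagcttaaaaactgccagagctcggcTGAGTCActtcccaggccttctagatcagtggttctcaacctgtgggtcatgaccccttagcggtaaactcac
C1qtnf3 intron: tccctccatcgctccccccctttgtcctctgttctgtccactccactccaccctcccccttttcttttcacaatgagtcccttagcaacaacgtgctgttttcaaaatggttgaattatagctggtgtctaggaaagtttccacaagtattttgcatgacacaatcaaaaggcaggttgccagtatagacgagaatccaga
Cd24a intron: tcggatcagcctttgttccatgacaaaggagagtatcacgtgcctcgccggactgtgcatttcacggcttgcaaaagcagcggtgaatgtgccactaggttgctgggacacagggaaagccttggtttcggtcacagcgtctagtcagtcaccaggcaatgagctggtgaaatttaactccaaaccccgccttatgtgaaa
Cd53 intron: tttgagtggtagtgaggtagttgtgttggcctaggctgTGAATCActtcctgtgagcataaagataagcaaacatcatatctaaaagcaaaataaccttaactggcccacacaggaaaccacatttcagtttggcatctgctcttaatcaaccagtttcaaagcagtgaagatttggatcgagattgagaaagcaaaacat

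RNA levels are given as CPM, read counts relative to library size, after scaling of the libraries with TMM, a method that removes differences in library composition. Galnt18 CPM was 7.53, 11, 7.04 and 14.9 at P1, then 57.7, 60.6, 46.8 and 129 at P3, 122, 103, 107 and 216 at P5, then 260, 321, 247 and 337 at P7. Every P3 library lay above every P1 library, and every P7 library above every P5 library, while P3 and P5 overlapped because the library numbered 4 was the highest at both, as it was at every passage. The mean was 10.1 ± 3.65 CPM at P1 (SD, n = 4) and 291 ± 44.4 at P7 (SD, n = 4), 28.8 times as high. The steps between passages were 7.25-fold, 1.87-fold and 2.12-fold, so the level was still higher at the last step. The fitted log2 difference between P7 and P1 was 4.84 (SE 0.33), the 13th largest of 13442 genes tested and the largest of the 9583 with an average log2 CPM of at least 3.

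Rgs8 was at the limit of detection at P1, with 1.16, 0.68, 1.03 and 0.371 CPM and 48 counts over the 4 libraries. It stood at 8.41, 6.58, 10.9 and 7.31 CPM at P3, at 11.3, 14.2, 16.9 and 18.2 at P5 and at 10.5, 14.5, 12.5 and 23.1 at P7. The P1 libraries were all far below the others, and the P5 and P7 libraries overlapped throughout. Rgs8 therefore had its step early, 10.2-fold from P1 to P3, and the ratio of P7 to P5 was 0.999. The log2 difference between P3 and P1 was 3.36, the sixth largest of all genes tested.

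C1qtnf3 CPM was 13.1, 12.6, 11.4 and 17.8 at P1, 103, 121, 84.5 and 82.7 at P3, 136, 167, 136 and 117 at P5, then 185, 135, 170 and 170 at P7. As for Rgs8, the libraries of P1 stood apart from all later ones and those of P5 and P7 overlapped. The ratio of means was 7.12 from P1 to P3, 1.42 from P3 to P5 and 1.19 from P5 to P7. The spread between libraries was small, and the log2 difference between P7 and P1 was 3.58 (SE 0.16).

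Cd24a did not have this course. Its CPM was 21.1, 19.4, 28.1 and 24.1 at P1, 3.29, 4.73, 2.97 and 3.58 at P3, 2.58, 3.04, 2.46 and 1.46 at P5, then 10.8, 12.9, 17.1 and 7.94 at P7. The level was highest at P1 in every library, 6.36 times that of P3, and lowest at P5. From P5 to P7 it was 5.12 times higher, with no overlap between the groups, yet the mean of P7 stayed 1.90 times below that of P1 (log2 difference between P7 and P1 -0.93, SE 0.20, rank 11480 of 13442 counted from the largest increase). The description of Cd24a as a gene of increasing expression thus held for the last step alone, where its log2 difference of 2.35 ranked 26th.

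Cd53 CPM was 8.63, 7.75, 10.9 and 5.32 at P1 and 5.85, 10.3, 6.45 and 9.0 at P3, and these 2 groups overlapped. It was 23.9, 21.4, 21.2 and 16.7 at P5, then 83.3, 75.0, 87.8 and 75.9 at P7, each group above all earlier libraries. The step was 2.63-fold from P3 to P5 and 3.87-fold from P5 to P7, so Cd53 moved late, and its P7 mean of 80.5 ± 6.12 CPM (SD, n = 4) was 9.88 times that of P1. Its log2 difference at the last step was 1.95, rank 39 of all genes tested.

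**Figure D1:**
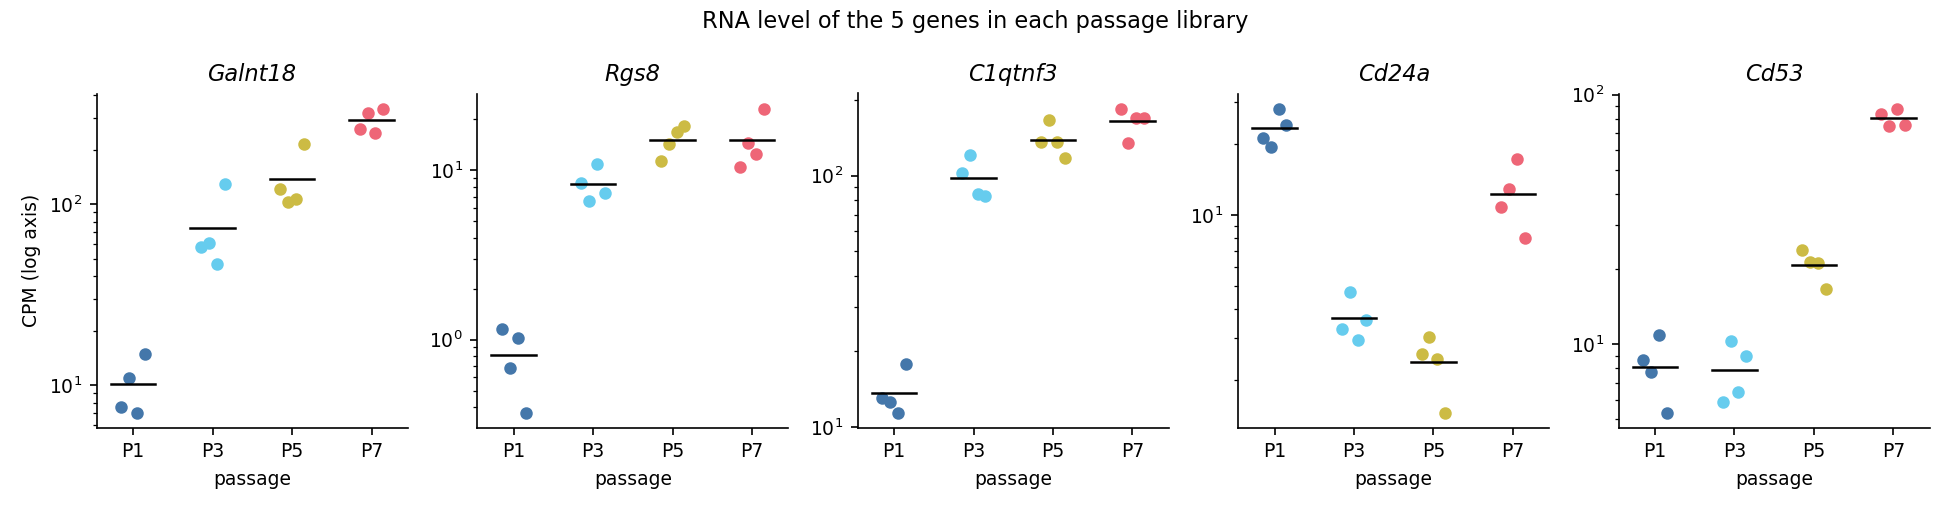
CPM (log axis, a panel per gene) against passage, with a point for each of the 16 libraries and a black line at the mean of each passage. Galnt18, Rgs8 and C1qtnf3 climb mainly between P1 and P3, Cd53 between P3 and P7, and Cd24a goes from 23.2 CPM at P1 to 2.38 at P5 and back to 12.2 at P7.

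Between genes, levels were compared per kilobase of exonic sequence. At P1 the order of mean CPM per kilobase was Cd24a with 12.8 ± 2.09, C1qtnf3 with 4.93 ± 1.00, Galnt18 with 3.79 ± 1.37, Cd53 with 2.91 ± 0.819 and Rgs8 with 0.121 ± 0.0534 (SD, n = 4 each), where C1qtnf3 and Galnt18, and likewise Galnt18 and Cd53, lay within their spread of each other. At P7 it was Galnt18 with 109 ± 16.6, C1qtnf3 with 59.2 ± 7.60, Cd53 with 28.7 ± 2.19, Cd24a with 6.72 ± 2.13 and Rgs8 with 2.27 ± 0.831, and no neighbours in that order lay within their spread of each other. The gene with the highest level at P1 was thus next to last at P7.

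Over the 16 passage libraries, Pearson correlations of log2 CPM were 0.94 between Rgs8 and C1qtnf3, 0.93 between Galnt18 and C1qtnf3 and 0.90 between Galnt18 and Rgs8. Cd53 correlated with Galnt18 at 0.75, and Cd24a at 0.08 with Cd53, -0.49 with Galnt18 and -0.70 with Rgs8. These values describe courses over shared libraries and carry no test. Among 9582 other genes of average log2 CPM of at least 3, the most similar to Galnt18 were Prnp (0.988), the GPI-anchored prion protein, Enpp5 (0.986) and Sparc (0.986), a secreted matrix protein. For C1qtnf3 they were the collagen chain Col5a2 (0.992), Copg2 (0.988) and Lbh (0.988), and for Rgs8 they were Dbn1 (0.969), the collagen-binding integrin Itga11 (0.964) and Anxa6 (0.963). Those most similar to Cd24a were the surface proteoglycan Sdc4 (0.953), the adhesion molecule Alcam (0.929) and Csf1r (0.906), the receptor for colony stimulating factor 1, and for Cd53 Magee1 (0.963), the activin antagonist Fst (0.958) and Pla2g6 (0.957).

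Because Cd53 and Cd24a are textbook markers of other cell types, markers of these cells were summed per library. The summed level of 10 leukocyte markers was 80.4 to 104 CPM at P1, 9.67 to 13.2 at P3, 5.30 to 8.34 at P5, then 3.47 to 8.76 at P7. They moved opposite to Cd53, which was 80.5 CPM at P7 when all 10 markers together stayed under 9 CPM. Ptprc, the common leukocyte antigen CD45, was 7.63 CPM at P1 and 0.208 at P7, Tyrobp 10.1 and 0.148, and Cd48 1.52 and 0 with no count in any P7 library. The pan-leukocyte tetraspanin Cd37 was 1.73 CPM at P1 and 0.170 at P7. Of the 9 leukocyte markers tested, 9 fell from P1 to P7, where 31.9% of all tested genes fell. In bulk RNA, fewer cells of a type and less RNA per cell cannot be told apart.

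Macrophage markers followed the leukocyte list with an exception at the last step. Their sum was 394 to 614 CPM at P1, 20.7 to 32.2 at P5, then 33.9 to 55.7 at P7, and 9 of 10 fell from P1 to P7. The exception was Csf1r, which rose by 1.45 on the log2 scale between P5 and P7 (SE 0.14, adjusted p = 1.39e-06, edgeR), from 7.95 to 21.8 CPM. Keratinocyte markers summed to 68.3 to 416 CPM at P1, 4.73 to 7.97 at P3, 5.82 to 11.1 at P5, then 9.92 to 13.4 at P7. Of the 8 tested, 7 fell from P1 to P7, and Krt14, a keratin of basal keratinocytes, went from 54.2 CPM to 0. Cd24a shared the high P1 level of these lists, and their part in its P1 level was not tested. All 5 endothelial markers fell from P1 to P7. Of the fibroblast markers, 5 rose and 4 fell among 10 tested, with Col3a1 at 2.00 (SE 0.14, adjusted p = 3.14e-10, edgeR) and Lum at -1.96 (SE 0.26, adjusted p = 2.11e-06, edgeR).
Of the remaining lists, Cd4 was tested among 10 B and T cell markers and S100a8 among 8 granulocyte markers, and both fell. Of 5 Schwann and neural markers tested, 4 rose and 1 fell. The 8 on that list summed to 61.3 to 65.8 CPM at P1, 124 to 136 at P3, 106 to 151 at P5 and 99.1 to 192 at P7. Their part in the level of Rgs8 was not tested. The 10 fibroblast markers summed to 22689 to 24584 CPM at P1, 31596 to 37229 at P3, 32927 to 41623 at P5 and 35433 to 38339 at P7.

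The relatives of each gene were described over the passages beside the background of 62.5% of 13442 tested genes that passed between P7 and P1 (30.5% higher and 31.9% lower, adjusted p under 0.05) and a median log2 difference of -0.01. Of the other 13 N-acetylgalactosaminyltransferases tested, 5 rose and 5 fell, with a median of 0.13. Galnt16 rose by 2.33 (SE 0.16, adjusted p = 4.1e-10, edgeR), from 4.41 to 22.2 CPM, and Galnt17 by 1.56 (SE 0.10), from 138 to 406 CPM, whereas Galnt6 fell by 5.37 and Galnt5 fell by 3.25. The enzymes that extend the O-glycan showed 3 of 10 higher and 3 lower, with the core extension enzyme B3gnt3 at 1.08 and the sialyltransferase St6galnac3 at -3.56. Galnt18 was thus the member of its family with the largest increase, which its selection fixed.

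Among 13 other RGS genes tested, 5 rose and 4 fell (median 0.24). Rgs4 rose by 2.59 (SE 0.18, adjusted p = 3.21e-10, edgeR), from 6.16 to 37.3 CPM, and Rgs16 by 1.65 (SE 0.11), while Rgs1, Rgs9 and Rgs2 fell, at -7.90, -2.43 and -2.35. Between P5 and P7, where Rgs8 stood still, 4 RGS genes rose and 1 fell among the 13, where 7.67% of all tested genes rose and 9.1% fell, and Rgs16 was at 1.30 (SE 0.11, adjusted p = 3.99e-07, edgeR). Of the alpha subunits on which RGS proteins act, 3 of 8 tested rose, with Gnao1 at 0.68, and 3 fell, with Gna14 at -2.68 and Gna15 at -2.54. In the C1q and TNF related family, 4 of 7 tested rose and 1 fell (median 0.79), with C1ql3 at 1.30, C1qtnf6 at 0.99 (50.1 to 99.8 CPM) and C1ql1 at -2.20.

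Among 21 other tetraspanins, 8 rose and 6 fell (median 0.07). Cd81, found on most cell types, rose by 1.31 (SE 0.09, adjusted p = 1.47e-10, edgeR), from 261 to 648 CPM, and the laminin-integrin partner Cd151 by 1.08 (106 to 224 CPM), whereas the leukocyte tetraspanin Cd37 fell by 3.27. Of 19 other GPI-anchored surface proteins, 9 rose and 8 fell (median 0.07), with the complement regulators Cd59a at 2.33 and Cd55 at 1.98, and the leukocyte antigens Cd48 at -7.47 and Cd52 at -5.20. Of 6 tested genes whose products bind or signal with Cd24a, 4 rose, led by Siglecg, a Siglec receptor, at 1.21 (11.6 to 26.9 CPM), and Hmgb1 fell by 1.29.

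The nearest tested genes on each side were also read between P7 and P1. Rgs16, 42.7 kb from Rgs8, rose by 1.65 (adjusted p = 1.19e-10, edgeR), with means of 42.3, 70.1, 53.9 and 133 CPM from P1 to P7, a course that unlike that of Rgs8 had its largest step last. Amacr, 1.59 kb from C1qtnf3, rose by 1.41 (SE 0.13, adjusted p = 1.74e-08, edgeR). Npl, 103 kb from Rgs8, was at -0.34 and not past the threshold, and 4930556M19Rik, 162 kb from C1qtnf3, rose by 0.98 (adjusted p = 0.0170, edgeR). The neighbours of Galnt18, Eif4g2 and Usp47, lie 389 and 243 kb away and had log2 differences of -0.07 and 0.08, neither past the threshold. Lrif1 and AI504432, 22.3 and 249 kb from Cd53, were at 0.07 and 0.26 and not past the threshold. At Cd24a, 1700021F05Rik, 38.1 kb away, rose by 0.37 (adjusted p = 0.0229, edgeR) and Qrsl1, 289.9 kb away, fell by 0.32 (adjusted p = 0.0316, edgeR).

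The manipulated factors were read before the genes. E2f4 was at 35.5 and 47.5 CPM with the control vector and 1118 and 1180 with the E2f4 vector, and hairpin sh1 took it from between 59.6 and 60.8 to between 20.4 and 21.8 CPM. The log2 differences of Tead1 were -0.96 with sh3 and -0.78 with sh4. Atf3 was low in its experiment, at 2.77 to 3.31 CPM with the non-targeting hairpin. It was 1.46, 2.10 and 0.451 CPM with sh5 (log2 difference -1.14, adjusted p = 0.0447, edgeR) and 1.51, 1.56 and 2.09 CPM with sh6 (-0.79, adjusted p = 0.114, edgeR), so the sh6 libraries are named by their label.

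With E2f4 overexpressed, 4 of the 5 genes passed and 2 of these changed more than 2-fold, where 57.2% of 13199 tested genes passed and 18.1% also changed more than 2-fold (10.4% downward). Cd53 was 24.4 and 20.4 CPM in the control libraries and 3.05 and 2.72 in the E2f4 libraries. It fell by 2.95 on the log2 scale (SE 0.18, adjusted p = 2.66e-06, edgeR), 7.73-fold, and ranked 82nd among the decreases of 13199 genes. C1qtnf3 was 151 and 134 CPM against 59.1 and 50.3, and it fell 2.60-fold (log2 difference -1.38, SE 0.12, adjusted p = 1.63e-05, edgeR). Galnt18 went from 155 and 161 to 95.5 and 103 CPM and fell 1.59-fold (log2 difference -0.67, SE 0.11, adjusted p = 3.89e-04, edgeR). Cd24a moved the other way, from 62.8 and 69.3 to 98.4 and 92.6 CPM, and rose 1.45-fold (log2 difference 0.53, SE 0.11, adjusted p = 0.00218, edgeR). For none of these 4 genes did the groups overlap. With 2 against 2 libraries and the share of all genes without overlap not counted, this is a description only. Rgs8 was under 1 CPM in all 4 libraries and did not pass (log2 difference -0.36, SE 0.53, adjusted p = 0.576, edgeR).

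Of 11 other RGS genes tested, 5 fell more than 2-fold with E2f4, beside the 10.4% of all tested genes, including Rgs4 at -2.23 and Rgs5 at -1.98 on the log2 scale, and Rgs2 rose by 1.60. The GPI-anchored Cd55 fell by 2.38, the transferase Galnt13 fell by 2.73, and the tetraspanin Tspan11 rose by 2.66. Of the 10 neighbours, 5 fell and none rose, where 57.2% of all tested genes passed in either direction. Lrif1 and AI504432, those of Cd53, were at -1.62 (adjusted p = 1.05e-04, edgeR) and -1.51 (adjusted p = 0.00926, edgeR). No leukocyte marker had enough counts to be tested, and the 10 markers summed to 0.524 to 0.749 CPM in the control and 0.327 to 0.526 CPM in the E2f4 libraries. Macrophage markers summed to 6.90 to 7.32 and 4.51 to 5.16 CPM, and 1 of 3 tested fell. Keratinocyte markers moved with Cd24a, at 12.97 to 16.1 CPM in the control and 24.8 CPM in both E2f4 libraries. Of the 5 tested, the cadherin Cdh1 and Sfn rose, at 3.28 and 1.24, and the desmosomal Dsp fell by 1.94. Schwann and neural markers summed to 52.6 to 57.7 CPM in the control and 122 CPM in both E2f4 libraries, where of 4 tested the neuronal tubulin Tubb3 rose by 1.48 and 2 fell. The part of these markers in the results was not tested.

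With E2f4 knocked down, the same 4 genes passed and none changed more than 2-fold, where 17.8% of 12310 tested genes passed and 1.67% also changed more than 2-fold. All 4 were higher. Galnt18 was 272, 299 and 291 CPM with the non-targeting hairpin and 353, 365 and 399 with sh1 (1.30-fold, adjusted p = 0.00128, edgeR). C1qtnf3 went from 96.8, 111 and 114 to 142, 172 and 198 CPM (1.59-fold, adjusted p = 4.22e-04, edgeR). Cd24a went from 37.8, 41.7 and 36.8 to 56.1, 70.6 and 51.5 CPM (1.53-fold, adjusted p = 0.00166, edgeR), so it was higher both with more and with less E2f4. Cd53 went from 12.1, 12.3 and 14.2 to 20.1, 23.8 and 19.8 CPM (1.64-fold, adjusted p = 0.00163, edgeR). The groups of none of the 4 overlapped, a description only, since the share of all genes was again not counted. Rgs8 had too few counts to be tested. Macrophage markers moved with these genes, at a sum of 5.71 to 11.1 CPM without and 14.7 to 21.3 CPM with sh1, and their part was not tested. Of the 3 tested, Csf1r rose by 1.22 and Lyz2 by 1.71, while leukocyte markers summed to 0.59 to 5.34 and 1.44 to 3.94 CPM. Schwann and neural markers were also higher, at 53.1 to 56.9 without and 73.5 to 85.2 CPM with sh1, and fibroblast markers lower, at 35508 to 36600 and 27092 to 30411 CPM. Keratinocyte markers overlapped between the groups, at 6.79 to 15.1 without and 8.86 to 10.7 CPM with sh1.

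With Tead1 hairpin sh3, C1qtnf3 and Cd53 passed of 5 genes tested, where 35.4% of 13012 genes passed. C1qtnf3 was 178, 184 and 180 CPM with the non-targeting hairpin and 251, 275 and 269 with sh3 (1.47-fold). Cd53 was 13.3, 12.8 and 10.4 CPM and 19.7, 20.7 and 20.5 with sh3 (1.67-fold, adjusted p = 3.19e-07, edgeR). With sh4, where 29.1% passed, C1qtnf3 was 182, 206 and 209 CPM (1.1-fold, adjusted p = 0.0298, edgeR) and Cd53 was 14.3, 14.9 and 13.6 CPM (adjusted p = 0.0822, edgeR). The call of C1qtnf3 with sh4 was lost when non-targeting replicate 1 or 3 or sh4 replicate 2 or 3 was left out (adjusted p = 0.0704, 0.0868, 0.125 and 0.166, edgeR), and Cd53 passed without non-targeting replicate 1 (adjusted p = 0.0431, edgeR). Both genes were lower with sh4 than with sh3, at -0.41 and -0.51 on the log2 scale (adjusted p = 9.16e-07 and 6.87e-04, edgeR), where 7.37% of genes passed. The 2 hairpins share the non-targeting libraries. Their target sequences listed in the paper's supplement overlap except at the ends, so a direction shared by sh3 and sh4 is not independent evidence.

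Galnt18 was nearly flat in this experiment, at 270 to 303 CPM with the non-targeting hairpin, 294 to 303 with sh3 and 297 to 303 with sh4. Its log2 differences were 0.05 (SE 0.04) for both hairpins. Cd24a was 26.2 to 32.0 CPM over the 9 libraries and passed with neither hairpin, and nor did the weakly counted Rgs8 (adjusted p = 0.191 and 0.462, edgeR). Among the relatives, Galnt16 fell by 1.41 with sh3 and C1qtnf6 fell by 1.18 with sh4.

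With Atf3 hairpin sh5, 3 genes passed and 2 of them rose more than 2-fold, where 35.9% of 13345 genes passed and 1.38% rose more than 2-fold. Cd53 was 6.28, 5.87 and 5.68 CPM with the non-targeting hairpin and 28.8, 27.8 and 41.4 with sh5. It rose by 2.46 on the log2 scale (SE 0.16, adjusted p = 1.52e-05, edgeR), 5.48-fold and the tenth largest increase of all tested genes. Cd24a was 35.1, 31.5 and 31.8 CPM and 90.5, 76.4 and 126 with sh5, and it rose 2.98-fold (log2 difference 1.57, SE 0.16, adjusted p = 1.97e-04, edgeR). Galnt18 was 159, 171 and 164 CPM and 168, 159 and 113 with sh5 and did not pass (log2 difference -0.17, SE 0.13, adjusted p = 0.309, edgeR). Replicate 3 of sh5 stood apart, with the highest Cd53, Cd24a and C1qtnf3 and the lowest Galnt18. Without it the log2 differences were 2.27 for Cd53, 1.37 for Cd24a and 0.015 for Galnt18.

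With sh6, 4 genes passed and Cd53 alone changed more than 2-fold, where 49.8% of genes passed and 15.7% also changed more than 2-fold (4.83% upward). Cd53 was 21.3, 23.4 and 23.4 CPM, a rise of 1.93 on the log2 scale (SE 0.16, adjusted p = 5.48e-06, edgeR) or 3.81-fold. Cd24a was 50.7, 53.1 and 56.5 CPM and rose 1.63-fold (adjusted p = 0.00397, edgeR). Galnt18 was 108, 107 and 105 CPM and fell by 0.62 (SE 0.13, adjusted p = 0.00216, edgeR). C1qtnf3 was 320, 319 and 322 CPM with the non-targeting hairpin, 366, 369 and 469 with sh5 and 224, 217 and 269 with sh6. It passed upward with sh5 (log2 difference 0.33, SE 0.11, adjusted p = 0.0427, edgeR) and downward with sh6 (-0.44, SE 0.11, adjusted p = 0.00765, edgeR). The sh5 call of C1qtnf3 was lost when any of the 3 non-targeting replicates was left out (adjusted p = 0.0951, 0.112 and 0.105, edgeR) and when sh6 replicate 2 was (adjusted p = 0.0558, edgeR).

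All 4 genes tested were lower with sh6 than with sh5, where 52.6% of genes passed. The log2 differences were -0.46 for Galnt18 (adjusted p = 0.0118, edgeR), -0.76 for C1qtnf3 (adjusted p = 2.71e-04, edgeR), -0.87 for Cd24a (adjusted p = 0.00100, edgeR) and -0.53 for Cd53 (adjusted p = 0.0132, edgeR). The direction from the non-targeting libraries was therefore shared by the hairpins for Cd53 and Cd24a, opposite for C1qtnf3, and for Galnt18 a fall passed with sh6 alone. Leukocyte markers summed to 1.59 to 2.40 CPM with the non-targeting hairpin, 1.02 to 1.57 with sh5 and 1.14 to 1.39 with sh6. Coro1a, the leukocyte marker with enough counts to be tested, rose by 2.61 with sh6, from 0.109 to 0.704 CPM, and Siglecg rose by 3.00. Macrophage markers summed to 14.6 to 15.98 CPM with the non-targeting hairpin, 16.03 to 24.02 with sh5 and 9.07 to 10.01 with sh6, where of 3 tested 2 fell, with Csf1r at -1.31, and 1 rose. Keratinocyte markers were lower with both hairpins while Cd24a was higher. They summed to 8.13 to 8.83 CPM with the non-targeting hairpin, 4.12 to 6.70 with sh5 and 5.11 to 5.35 with sh6. Fibroblast markers summed to 39025 to 40744 CPM, 25377 to 37622 with sh5 and 17060 to 17906 with sh6, so their level was lower beside the falls of Galnt18 and C1qtnf3 with sh6. With sh6, 7 of 10 fell and none rose, among them Lum, at -2.65, and the collagen Col1a1, at -1.83. The part of these markers was not tested. Also with sh6, Rgs16 rose by 1.69 and the tetraspanin Cd151 rose by 1.5, whereas the tetraspanin Tspan18 fell by 5.21.

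**Figure D2:**
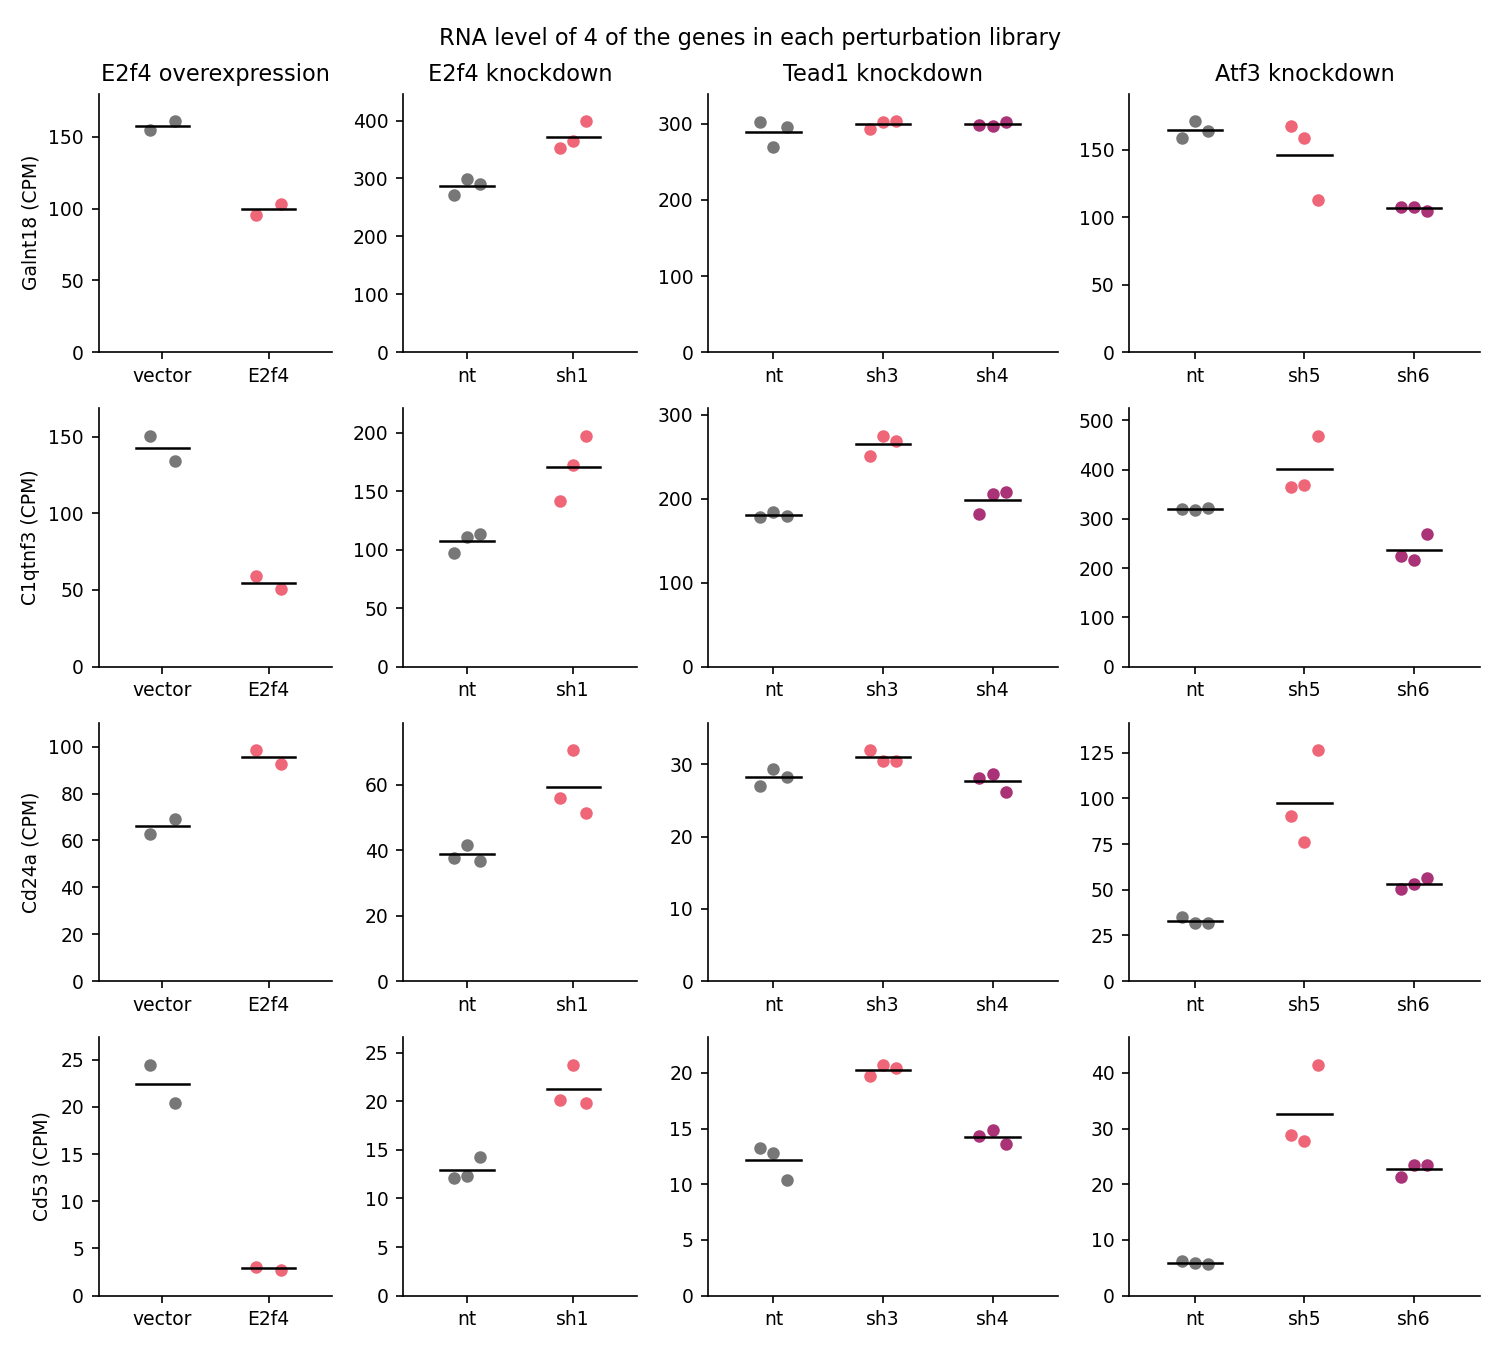
CPM (linear axis from 0) of 4 of the genes, in rows, in each library of the 4 experiments, in columns, with grey points for the control (nt, non-targeting), coloured points for treated libraries and a black line at each mean. Cd53 drops to 3.05 and 2.72 CPM with E2f4 overexpression and lies above all non-targeting libraries with both Atf3 hairpins.

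**Figure D3:**
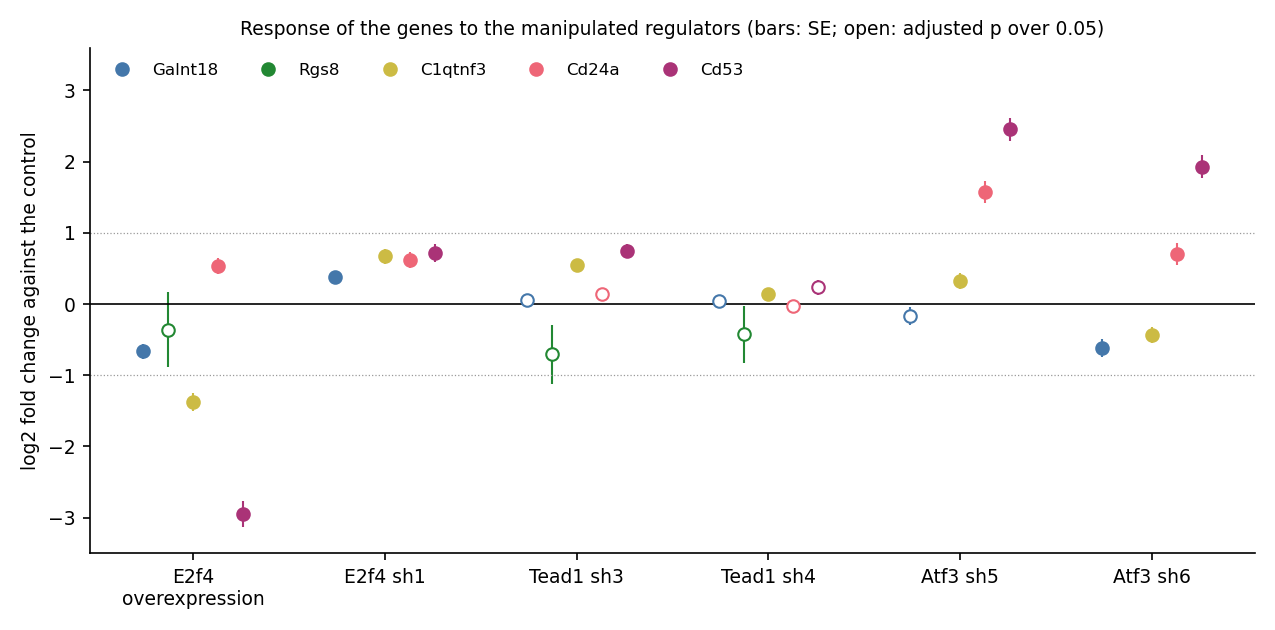
Log2 fold change from the control for each gene tested, by manipulation, with the standard error of the fit as bars, open points where the adjusted p exceeded 0.05 and dotted lines at a 2-fold change. Cd53 spans -2.95 with E2f4 overexpression to 2.46 with Atf3 hairpin sh5, and Galnt18 stays within 0.67 of 0.

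Rgs8 lay between 0.0924 and 1.31 CPM in all manipulated and control libraries, below every P3, P5 and P7 library of the untreated series, although these cells had been manipulated at P3 to P6. Over the control libraries alone, Galnt18 was 155 to 303 CPM and C1qtnf3 96.8 to 322, within or above their P3 ranges. Cd24a was 27.0 to 69.3 CPM in these controls, above all its P3, P5 and P7 libraries. Cd53 was 5.68 to 24.4 CPM in them, below all its P7 libraries. In the controls of the P6 experiments it was 10.4 to 13.3 CPM (Tead1) and 5.68 to 6.28 CPM (Atf3). These lay below all its P5 libraries, which started at 16.7 CPM. The experiments were fitted separately from the passages, and whether they were sequenced together is not given in the sources used here. These levels are therefore set side by side without a test.

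ATAC-seq peaks were called in each sample, and the lists give positions and peak scores but no read counts, so depth is unknown. For each sample the bases covered by peaks within the gene and 10 kb on each side were summed. At Galnt18 they were 9314, 7840, 9350 and 9150 at P1, 9557, 10838 and 10534 at P3, 15845, 20424 and 14253 at P5, then 23213, 22980 and 27900 at P7. Each passage lay above the one before without overlap. The mean was 8914 ± 721 bases at P1 (SD, n = 4) and 24698 ± 2776 at P7 (SD, n = 3), 2.77 times as many (difference 15784 bases). The exact permutation test gave p = 0.0286, two-sided, the smallest that 4 against 3 samples allow, and p = 0.143 after adjustment over the 5 genes. In 15.4% of 13425 tested genes every P7 sample likewise exceeded every P1 sample, so the absence of overlap is common, and the ratio itself was at the 99.8th percentile of these genes, whose median was 0.975. When the same number of top-ranked peaks was taken from every sample, the P1 and P7 means were 7362 and 13575 bases, 1.84 times as many (difference 6214 bases, exact permutation p = 0.0286). On that scale each passage overlapped the next, with 5971 to 8270 bases at P1, 8233 to 10838 at P3, 9931 to 13206 at P5, then 12263 to 14816 at P7. The number of peaks at Galnt18 was 19, 18, 24 and 18 at P1 and 55, 68 and 72 at P7.

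The other genes showed no such widening. At Rgs8 the bases covered were 6223, 6297, 6593 and 6159 at P1 and 5865, 6179 and 6886 at P7 (difference -8 bases, exact permutation p = 0.971), while inside the gene alone P7 was higher by 787 bases (exact permutation p = 0.0286). At C1qtnf3 they were 5322, 4946, 4106 and 4843 at P1 and 5041, 4606 and 4484 at P7 (difference -93.9 bases, exact permutation p = 0.829). At Cd53 they were 2001, 1784, 2312 and 1638 at P1 and 2180, 2313 and 2464 at P7 (difference 385 bases, exact permutation p = 0.114). At Cd24a they were 2367, 2122, 2528 and 2895 at P1, 1609, 1859 and 1917 at P3, 2050, 2504 and 1736 at P5, then 2058, 1700 and 1905 at P7. Every P7 sample of Cd24a lay below every P1 sample, as in 17.5% of all genes, with a difference of -590 bases (exact permutation p = 0.0571). Over 50 kb on each side the difference was 986 bases in the other direction (exact permutation p = 0.171). The fold enrichment of the strongest peak within 10 kb of Cd24a was also higher, with means of 5.28 at P1 and 9.24 at P7. Every P7 sample lay above every P1 sample (exact permutation p = 0.0286, and 0.0952 after adjustment over the 5 genes).

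**Figure D4:**
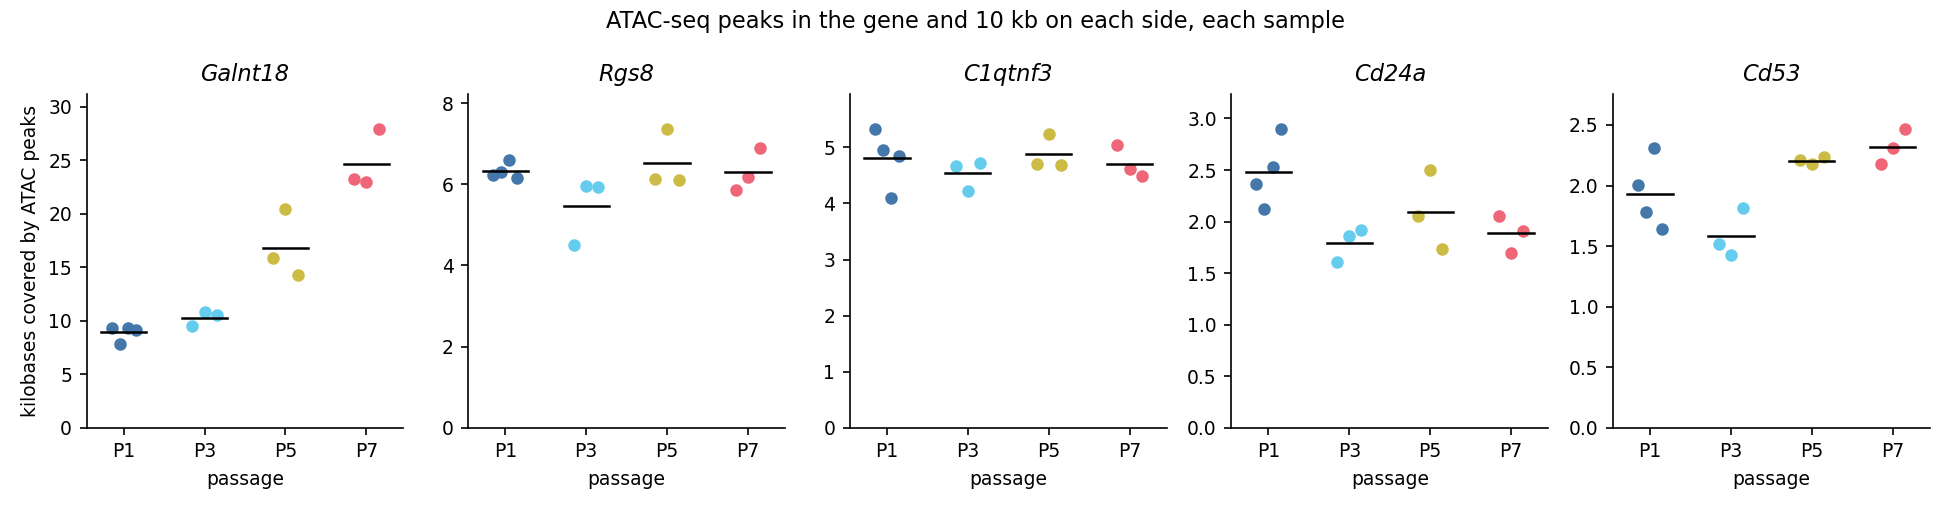
Kilobases covered by ATAC-seq peaks within each gene and 10 kb on each side (a panel per gene, axis from 0) against passage, with a point per sample and a black line at each mean. Galnt18 goes from 8914 to 24698 bases between P1 and P7, and the other 4 genes stay at or under 7353 bases.

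The peaks of all samples were merged into 306858 regions, and a region was called gained when every P7 sample and no P1 sample had a peak there, which held for 5.14%, and lost in the reverse case, which held for 0.868%. At Galnt18, 12 of 103 regions within 10 kb were gained (11.7%), 8 of them inside the gene, and none was lost. Of the 12, 6 had a peak in a P3 sample and 11 in a P5 sample. In 38.3% of tested genes at least 1 gained region lay within the gene and 10 kb. The other 4 genes had none in that window. None of the 5 had a lost region within 50 kb, where 7.29% of tested genes had 1 within 10 kb. Regions with a peak in all 13 samples made up 30.8% of the total and 11 of the 103 at Galnt18.

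Peak strength is given as the percentile of a peak among all peaks of its sample, with 0 where there is none. The lists differ in length, with 168982 to 186562 peaks at P1, 142384 to 155681 at P3, 182402 to 207965 at P5 and 200376 to 231558 at P7, so the same peak can take another percentile in another sample, and the percentiles over the passages are a description. The strongest gained region inside Galnt18, chr7:111571972-111572707, lies 207.6 kb from the start site. Its mean percentile was 0 at P1, 6.89 at P3, 13.5 at P5, then 59.3 ± 2.85 at P7 (SD, n = 3). The gained region nearest to the start site, at 7.07 kb, had means of 0, 2.91, 38.6 and 49.0, with all 3 P5 samples holding a peak. Regions present in all samples also took other percentiles, the region at 83.6 kb 73.4 at P1 and 94.8 at P7 (fold enrichment 9.62 and 15.5), that at 91.6 kb 60.3 and 88.1 and that at 158.9 kb 9.71 and 52.1. The region at 178.4 kb went the other way, from 56.4 to 46.8. The strongest region of the gene, at 258.6 kb, stood at 98.5 and 98.8. The start site itself was open throughout, at 90.6, 87.7, 90.1 and 88.5, and did not differ beyond its spread (exact permutation p = 0.114).

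**Figure D5:**
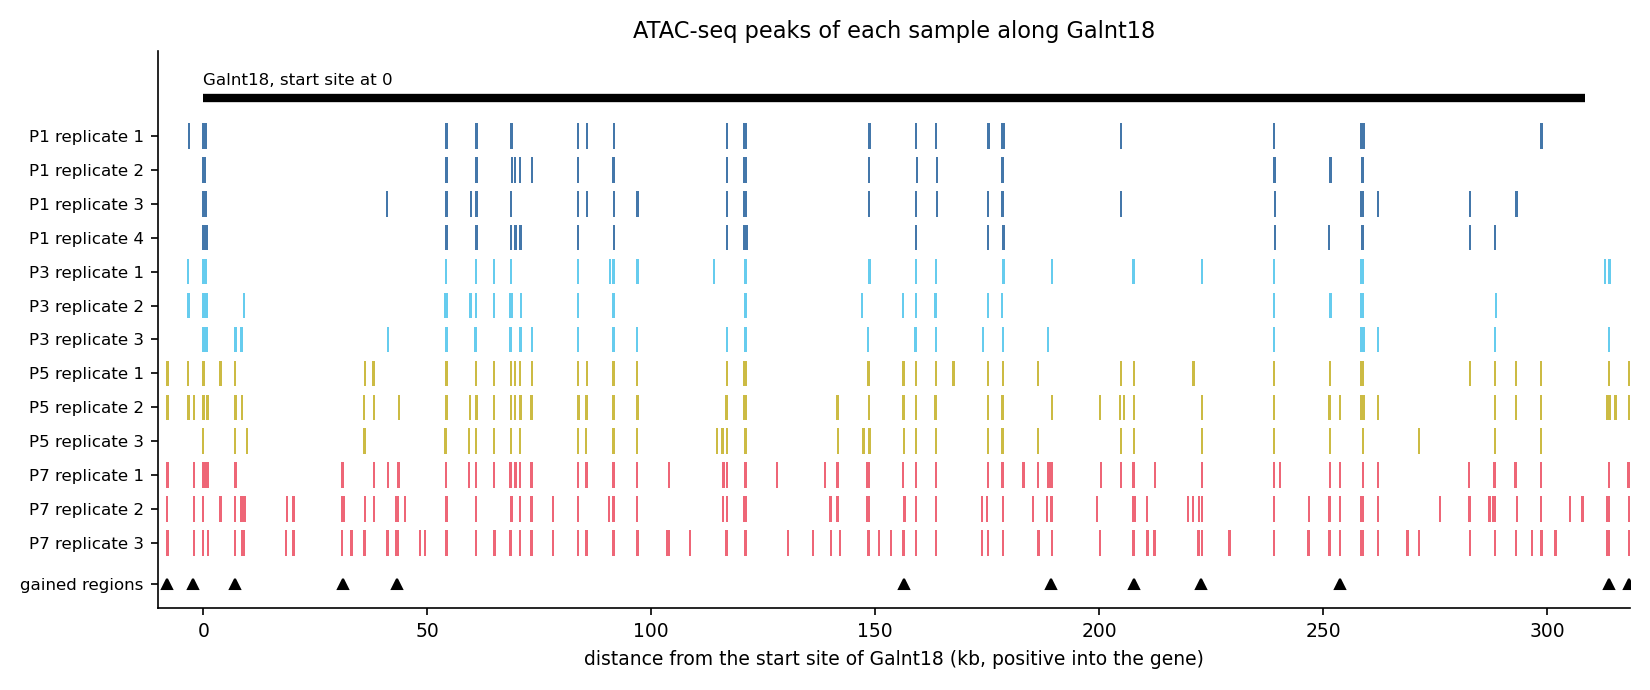
ATAC-seq peaks of the 13 samples, a row each and coloured by passage, against distance from the start site of Galnt18 in kilobases (positive into the gene, black bar above), with triangles at the 12 gained regions and a minimum drawn width for short peaks. Peaks at the start site are in all rows, and the P7 rows are the most densely filled, with 55, 68 and 72 peaks.

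Within 1000 bases of the start site of Cd24a the mean percentiles were 56.2 at P1, 25.6 at P3, 29.7 at P5, then 40.6 at P7. The samples of P3, P5 and P7 overlapped. Mean fold enrichment was 4.36, 3.13, 3.49 and 4.13, and the mean bases covered there were 1071, 480, 777 and 409, so the scales differed in where P7 stood. Within 500 bases of the start, peaks covered 594, 319, 479 and 572 bases at P1 and 0, 233 and 195 at P3. They covered 294, 488 and 239 bases at P5 and 116, 3 and 59 at P7. In percentile P7 was below P1 without overlap (exact permutation p = 0.0286, the smallest possible, and 0.2 after adjustment over 7 start sites). The region at -3.99 kb, upstream of the gene, went from 51.3 and 41.6 at P1 and P3 to 66.3 and 71.1 at P5 and P7. Gained regions lay farther out, 4 of 14 within 50 kb. The strongest, at -41.1 kb in an exon of Mtres1, had means of 0, 40.0, 65.8 and 78.5 and was present in all 3 P3 samples, at a passage where Cd24a RNA was low.

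At Cd53 the intronic region 1.54 kb from the start stood at 82.9, 83.8, 85.4 and 87.5, open at P1 when the RNA was at 8.14 CPM. No sample had a peak within 500 bases of the start site itself. Within 1000 bases a peak reached in 2 of 4 P1, 0 of 3 P3, 2 of 3 P5 and 1 of 3 P7 samples. These peaks covered 5 to 222 bases of that window. The region at 4.94 kb went from 25.6 at P1 to 59.0, 67.2 and 62.0. At C1qtnf3 the start site was at 68.8, 75.9, 80.3 and 77.5 (exact permutation p = 0.0571), and the region 23.0 kb downstream, which is also in an exon of Gm52174, went from 21.8 at P1 to 53.3, 55.4 and 73.3. C1qtnf3 had 3 gained of 30 regions within 50 kb. At Rgs8 the intronic region 20 kb from the start was strong at every passage (83.2, 83.9, 88.7 and 88.1). The annotated starts of Rgs8 formed 3 groups. The most open, at chr1:153661086-153661457, had means of 73.3, 76.9, 82.1 and 79.5, and no promoter there was searched for motifs. The group at chr1:153665247-153665673, where 2 of the promoters searched lie, had a peak in 1 of 4 P1 samples and in no later sample. The region just beyond the 3′ end of Rgs8 faded from 39.2 at P1 with 4 of 4 samples to 0.68 at P7 with 1 of 3.

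The 201-base windows were searched on both strands for AP-1 (TGANTCA), CRE (TGACGTCA), TEAD (GGAATG) and both forms of the E2F motif (GGCGGGAA and GGCGCGAA). Of the 12 gained regions at Galnt18, 5 held AP-1 and 3 TEAD, and the region outside the gene printed above held AP-1 at 3 places. Among all gained regions 26.8% held AP-1 and 25.3% TEAD, and among all regions 28.2% and 19.6%. Over all regions within 10 kb, AP-1 was found in 23 of 103 at Galnt18, 8 of 19 at Rgs8, 4 of 9 at C1qtnf3, 2 of 4 at Cd53 and 0 of 5 at Cd24a. TEAD was found in 16, 5, 3, 0 and 0 of these regions. A CRE was found in 1 of 4 regions at Cd53. It was in 0 of 103 at Galnt18, 0 of 19 at Rgs8, 0 of 9 at C1qtnf3 and 0 of 5 at Cd24a. Of all regions 0.528% held it, and 1 region is too few for a comparison. Neither E2F form was in any of these windows, where 0.339% and 0.0453% of all regions held them. Of the 3 genes with promoters in the table, TEAD was in 1 of 3 promoters of Rgs8, in that of C1qtnf3, not in that of Cd53, and in 14.7% of 32851 promoters, while 7.81% held AP-1.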

How the data were processed

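RNA-seq was measured in 44 libraries and ATAC-seq in 13 samples, grouped by their labels. Per the labels and methods, the authors used Trimmomatic 0.39 for trimming of RNA-seq reads, HISAT2 2.2.1 for alignment to mm10 and HTSeq 0.12.4 for unstranded counting per gene, and deposited raw counts. For ATAC-seq, the authors aligned with Bowtie2 and called peaks in each sample with MACS2, and the deposited peak lists hold the fold enrichment at each summit with its -log10 p and -log10 q. The smallest -log10 p was 2. Reduced representation bisulfite samples were not analysed here.

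Total counts were 9147324 to 27552949 per library (13430229 to 15725823 for the passages), after 5 rows without a gene were left out of the manipulation files (7.5% to 16.8% of their counts). Replicates spread more than counting error (chi-square per degree of freedom 2.74 to 59.9 over 50 pairs). Intervals at this depth would cover counting error only. Each experiment was fitted with edgeR 4.0.16 in R 4.3.3 (filterByExpr, TMM, quasi-likelihood test, Benjamini-Hochberg adjustment over all tested genes). A gene passed at an adjusted p under 0.05, and a fold of more than 2 is stated where used. CPM in correlations was log2 with a prior count of 2. Of the 24984 genes, 24435 had their symbol in the RefSeq annotation of GRCm38, and 435 more were found through an older symbol held by no other gene.

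ATAC-seq values were compared with an exact permutation test over samples, two-sided, and overlapping peaks of all samples were merged to regions. Percentiles rank peaks by -log10 p within a sample. At start sites they are those of the strongest peak that reached within 1000 bases of an annotated start. Copies of exons were sought with BLAST 2.17.0 at 90% identity over 150 bases. Scripts were tested on simulated data.

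The 5 genes, the 16 gene lists and the tests were chosen with earlier results of these data known. Other named genes follow a rule: the manipulated factors, the nearest tested and the overlapping genes, the 3 genes most similar to each member, up to 4 passed genes per list and direction, and list genes changed more than 2-fold by a manipulation. Alternatives tried were DESeq2 1.42.0, its size factors, other filters, the replicate number as a block, each library left out, and other peak thresholds, windows and scales. Samples with the same replicate number did not deviate together throughout (correlations -0.262 to 0.276 over the passages), so no block entered the tests above.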

Additional observations from a re-analysis of the deposited data

Results flagged for a closer look

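Galnt18 had 1 library far above the other 3 at P3 (129 CPM) and 1 at P5 (216 CPM). Both are numbered 4, and the libraries with that number were also the highest at P1 (14.9 CPM) and P7 (337 CPM), although they are separate libraries that the labels do not tie to each other. ATAC-seq replicate 2 of P1 lay far below the other P1 samples at Galnt18 (7840 bases covered). Chance marks about 1 in 20 groups this way, and 25 groups of 4 values were looked at. The cause was not tested.

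The hairpins against a factor differed from each other in 6 comparisons of these genes, by a test of the difference itself (edgeR). Between Tead1 sh4 and sh3 the log2 difference was -0.41 for C1qtnf3 and -0.51 for Cd53. Between Atf3 sh6 and sh5 it was -0.46 for Galnt18, -0.76 for C1qtnf3, -0.87 for Cd24a and -0.53 for Cd53. For C1qtnf3 the Atf3 hairpins lay on opposite sides of the non-targeting libraries. Without sh5 replicate 3, which stood apart, the Atf3 differences were -0.63, -0.65, -0.66 and -0.33 in the same order. The level of Atf3 itself was 0.451 to 2.10 CPM with sh5 and 1.51 to 2.09 CPM with sh6, and its part in the difference was not tested.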

How the results depend on the processing

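ATAC-seq depth is unknown, and the exact permutation test of 4 against 3 samples cannot go below p = 0.0286. Leaving out a sample or pairing by number makes p under 0.05 impossible. RNA counts of Rgs8 were low in the manipulated cells, at most 1.31 CPM, which limits what can be seen of a fall.

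The number of genes that passed in each manipulation (4, 4, 2, 1, 3 and 4) and in each hairpin difference (2 and 4) was the same with DESeq2, its size factors, other filters and the replicate block, except that C1qtnf3 with Atf3 sh5 was lost when only those 2 groups were fitted (adjusted p = 0.0531, edgeR). Without single libraries the number was 0 to 1 for Tead1 sh4 (0 without non-targeting replicate 3, sh4 replicate 2 or sh4 replicate 3) and 2 to 3 for Atf3 sh5. With the replicate block in a paired comparison of ATAC-seq at Galnt18 the difference was 15863 bases (exact permutation p = 0.25, the smallest for 3 pairs), and the block changed no other call. Whether the numbers pair the samples was not settled. Over the passages the mean correlation was 0.0745 with the same number and -0.0246 with others, and 10 of 16 libraries correlated best with their own number. So did 4 of 4 with E2f4 overexpression (correlation 0.142), where 2 libraries per group allow only all or none. In the E2f4 knockdown 6 of 6 did (0.0232 to 0.0342), as did 5 of 9 and 2 of 9 for Tead1 and Atf3.

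Several small differences that were past no threshold turned their sign. Without a library these were Rgs8 with E2f4 overexpression (-0.97 to 0.14), Cd24a with Tead1 sh4 (-0.055 to 0.011), Galnt18 (-0.018 to 0.0052) and Rgs8 (-0.067 to 0.60) between the Tead1 hairpins, and Galnt18 with Atf3 sh5 (-0.28 to 0.015). Without a filter on low counts Galnt18 between the Tead1 hairpins was 2.76e-05.

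With equal numbers of top-ranked peaks the difference at Galnt18 was 6214 bases (exact permutation p = 0.0286). For ATAC-seq the ranges without a sample were 14183 to 16643 bases at Galnt18, -296 to 214.5 at Rgs8 and -327 to 78.7 at C1qtnf3. With peaks of -log10 q of at least 5 the difference was 121.5 bases at Rgs8 and 266.8 at C1qtnf3. Inside the gene alone it was 787 at Rgs8 (exact permutation p = 0.0286), within 50 kb it was 2141 at C1qtnf3 and 986 at Cd24a, with equal numbers of top-ranked peaks it was 174 at C1qtnf3, and relative to all covered bases it was -6.92 at Cd24a (exact permutation p = 0.0286). The start site of Cd24a lost its unadjusted call with fold enrichment in place of percentile (0 sites passed in place of 1). With any sample left out no site could pass (0 to 0), since p under 0.05 is then impossible, so these runs say nothing about Cd24a. Gained regions within 50 kb of the 5 genes numbered 23, 55 with a peak in more than 60% of samples and 13 with top-ranked peaks. Lost regions numbered 0, and 1 with the stricter q and 1 with top-ranked peaks. The cause of these shifts was not tested. The description over the passages kept its signs when any library was left out, with log2 differences of 4.71 to 5.10 for Galnt18, 3.95 to 4.46 for Rgs8, 3.51 to 3.74 for C1qtnf3, -1.12 to -0.76 for Cd24a and 3.15 to 3.48 for Cd53.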
